A study of Mus musculus with 2 samples.

Results

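This account covers the genes of 5 channel families in mouse neural stem cells: voltage-gated sodium channels, voltage-gated calcium channels, HCN channels, TRP channels and CLC chloride channels. Members were all genes whose symbol began with Scn, Cacna, Cacnb, Cacng, Hcn, Trpc, Trpm, Trpv or Clcn (a digit had to follow Scn, Hcn and the Trp stems), whatever their level. The rule found 66 of the 15953 genes listed, of which 13 were sodium, 25 calcium, 4 HCN, 17 TRP and 7 CLC genes. It also took up Trpc4ap, which encodes a protein that binds a TRPC channel, and Trpc5os, a transcript from the strand opposite Trpc5. Neither encodes a channel subunit, so 64 members did.

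RNA of neural stem cells kept in suspension culture was sequenced in 1 library per genotype. The labels name these wild type and Hikeshi cKO, a conditional knockout of Hikeshi, a transport factor that takes HSP70 into the nucleus. Both groups share the species (Mus musculus), the cell type and the culture. Strain, animal age and number, Cre driver and deleted exons: none is given in the sources used here. With 1 library per group there was no replicate check and no test between genotypes, so every difference below is one between these 2 libraries.

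Voltage-gated sodium channels open when a membrane depolarises and carry the upstroke of the action potential. Voltage-gated calcium channels turn the same voltage change into calcium entry, which drives secretion, gene expression and growth cone behaviour. HCN channels open on hyperpolarisation, TRP channels respond to lipids, temperature, calcium stores and other stimuli, and CLC proteins are chloride channels of the cell surface or chloride-proton exchangers of endosomes and lysosomes. In the neural lineage many of the voltage-gated members are made by neurons and by oligodendrocyte precursors, whereas the endosomal CLC proteins are made by most cells.

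The libraries held 18912683 reads (cKO) and 18839079 reads (wild type). Hikeshi itself had 640 reads in the cKO-labelled library against 718 in the wild-type-labelled library, a ratio of 0.888 (95% counting interval 0.797 to 0.989). Counts over a whole gene need not show a conditional deletion, so the genotype is taken from the labels. Reads of the Y-linked genes Eif2s3y, Ddx3y, Kdm5d and Uty were nearly confined to the cKO-labelled library (305 to 1265 reads against 0 or 1), so the genotype label and the sex chromosomes of the cells cannot be told apart in any comparison below. All 14 neural stem and radial glia markers listed were kept, among them Sox2 (7633 against 7659 reads) and Nes (14759 against 10717 reads). Microglia markers had at most 5 reads.

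Levels are given as reads and as CPM, which is reads per 1000000 reads counted in that library. A ratio is CPM in the cKO-labelled library over CPM in the wild-type-labelled library, with a 95% interval from the exact binomial distribution of the reads (Clopper-Pearson), which covers counting error only. Genes of at least 1 CPM in either library were kept, and a gene is called higher or lower when it was at least 1.5-fold apart after adding 1 CPM to both values; "within 1.5-fold" is meant on that scale. Levels of different genes are ranked only in TPM, which corrects for length, while classes by mean CPM group genes by reads.

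Of the 66 members 46 were kept. In the cKO-labelled library 12 of these were lower and 2 were higher, against a background of 10.2% lower and 4.22% higher among all 12618 genes kept. The lower members were the sodium channel genes Scn3a, Scn7a and Scn2b, the calcium channel genes Cacna1d, Cacna1e, Cacna1b, Cacnb1 and Cacng4, the HCN gene Hcn2 and the TRP genes Trpm3, Trpm2 and Trpc2. Cacnb2, a calcium channel gene, was among the higher. The median difference of the kept members was -0.17 on the log2 scale of CPM + 1, and that of all kept genes was -0.02. Of the kept members 5 reached 1 CPM in the wild-type-labelled library only and 0 in the cKO-labelled library only. Among all 12618 kept genes these counts were 408 and 156, so the same lean was seen over all genes. Such genes passed through the library in which they were high. With every listed member and no filter the counts were 14 lower and 2 higher of 66, against 8.39% and 3.45% of all listed genes.

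**Figure D1:**
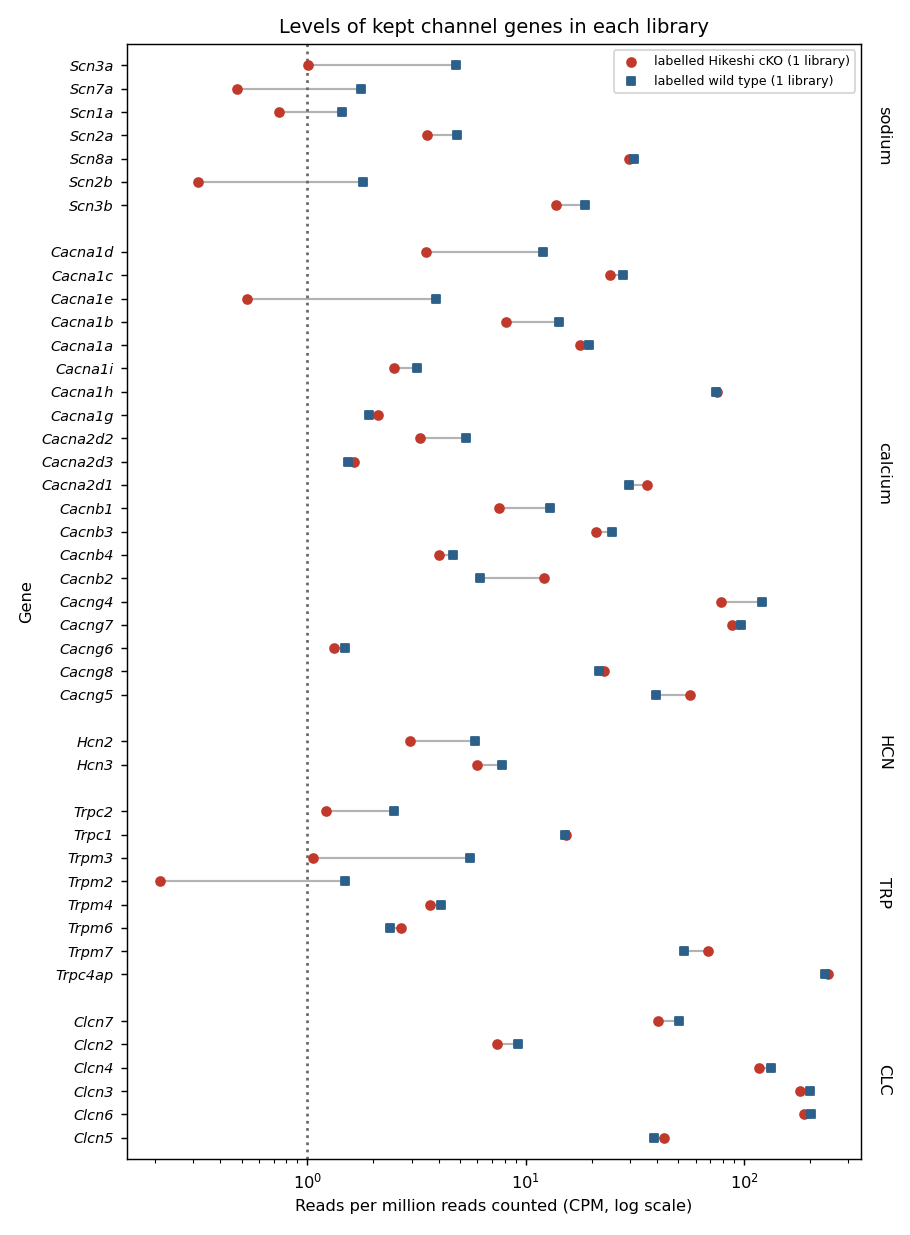
Level of 43 of the 46 kept channel genes in the cKO-labelled library (red circles) and the wild-type-labelled library (blue squares), in CPM on a log axis, 1 library each, grouped by family. The dotted line is the filter of 1 CPM; the long lines of Scn3a, Scn2b, Cacna1d, Cacna1e, Trpm3 and Trpm2 run to the left for the cKO-labelled library, while the CLC pairs lie close together.

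Most of the lower calls lay among members of low mean CPM, a class by reads that is not corrected for length. Of 19 kept members with a mean under 5 CPM 8 were lower and 0 higher, where all kept genes of that level had 27.6% lower and 7.64% higher. Between 5 and 20 CPM 3 of 10 were lower (background 13.3%) and 2 were higher (background 4.67%). At 20 CPM or more 1 of 17, Cacng4, was lower (background 5.29%) and 0 were higher (background 3.29%). The background share itself was thus highest at low levels, and the members' overall count is to be read against the share of their own level class.

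**Figure D2:**
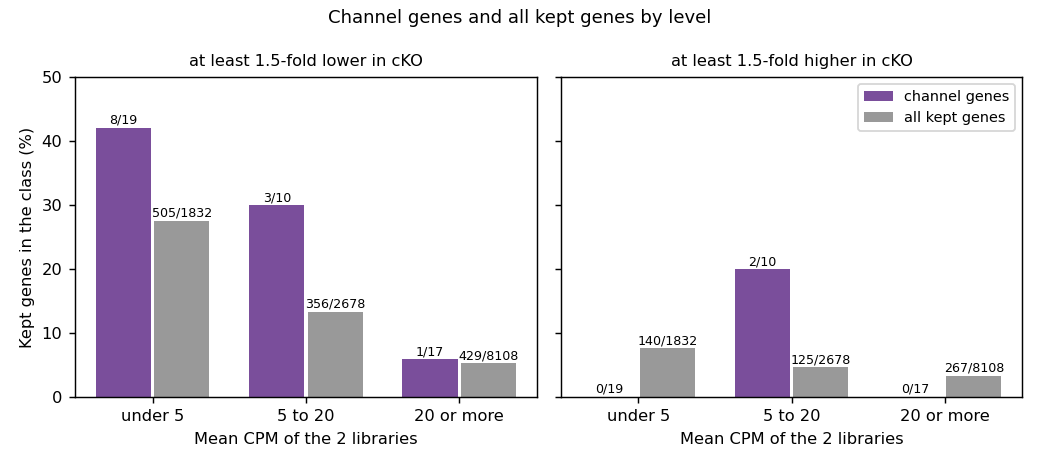
Percent of kept genes at least 1.5-fold lower (left) or higher (right) in the cKO-labelled library, by mean CPM of the 2 libraries, for channel genes (purple) and all kept genes (grey); numbers over the bars are genes called over genes kept. The lower share falls with level in both sets, from 8 of 19 to 1 of 17 for the channel genes.

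Of the pore-forming sodium channel genes Scn3a and Scn7a were lower in the cKO-labelled library. Scn3a, the sodium channel of the embryonic brain, had 19 reads in the cKO-labelled library against 90 in the wild-type-labelled library (1.005 against 4.78 CPM) and was 4.76-fold lower (2.88 to 8.26). Scn7a, an atypical channel gene linked to sodium sensing in glia, had 9 against 33 reads and was 3.68-fold lower (1.72 to 8.75). Scn2a and Scn1a, the main channels of axons and of inhibitory neurons, had 67 against 91 and 14 against 27 reads. Their ratios were 0.733 (0.527 to 1.02) and 0.516 (0.2503 to 1.02), and both intervals reach past 1. Scn8a, which supplies nodes of Ranvier and initial segments, was the most abundant pore gene of the family per length (4.67 and 5.06 TPM). It had 560 against 591 reads, a ratio of 0.944 (0.839 to 1.06).

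The sodium channel beta subunits are small adhesion-like proteins that modulate the pore. Scn3b had 259 against 351 reads, a ratio of 0.735 (0.624 to 0.866) that lay below 1 but within 1.5-fold. Scn2b had 6 against 34 reads and was 5.69-fold lower (2.36 to 16.6) in the cKO-labelled library.

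Of the sodium channel genes 5 lie in 1 cluster on mouse chromosome 2 (GRCm38.p6), in the order Scn3a (65457118 to 65567591), Scn2a (65620764 to 65767447), Scn1a (66270781 to 66440837), Scn9a (66480080 to 66635114) and Scn7a (66673426 to 66784910). The 4 kept genes of the cluster had differences of -1.53, -0.36, -0.48 and -0.90 in that order, all below 0. All 4 had a mean under 5 CPM, where 1221 of 1832 kept genes were below 0. Scn9a, the channel of pain-sensing neurons, had 1 read against 0.

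Among the calcium channel pore genes, those of the L, N and R type included the lower ones and those of the T type did not. Cacna1d, an L-type gene that opens at modest depolarisation, had 66 reads in the cKO-labelled library against 227 in the wild-type-labelled library (3.49 against 12.1 CPM), and was 3.45-fold lower (2.61 to 4.61). Cacna1e, the R-type gene, had 10 against 73 reads and was 7.33-fold lower (3.77 to 15.9). Cacna1b, the N-type gene of presynaptic terminals, had 154 against 266 reads and was 1.73-fold lower (1.42 to 2.13). The other L-type gene kept, Cacna1c, had 459 against 523 reads (ratio 0.874, 0.770 to 0.993), and Cacna1a, the P/Q-type gene, 336 against 368 (0.909, 0.782 to 1.06).

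T-type channels open near the resting potential. Cacna1h was the most abundant calcium pore gene per length (15.4 and 15.2 TPM), with 1423 reads against 1399 and a ratio of 1.01 (0.941 to 1.09). Cacna1g and Cacna1i, its relatives, had 40 against 36 and 47 against 60 reads, and both intervals included 1. All 3 T-type genes were thus within 1.5-fold, while 1 of 2 kept L-type genes and 2 of 3 genes of the P/Q, N and R types were lower. Of all kept genes 10.2% were lower, with 27.6% under 5 CPM and 13.3% between 5 and 20 CPM. At these shares 0 of 3 is an ordinary count, and the types hold too few genes to be set apart.

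The cytoplasmic beta subunits carry calcium pores to the membrane, and they were split. Cacnb2 had 228 reads in the cKO-labelled library against 116 in the wild-type-labelled library (12.1 against 6.16 CPM), a ratio of 1.96 (1.56 to 2.47). Cacnb1 had 142 against 243 reads (7.51 against 12.9 CPM) and was 1.72-fold lower (1.39 to 2.13). Cacnb3, the most abundant of the group per length (13.9 and 17.0 TPM), had 395 against 465 reads (ratio 0.846, 0.738 to 0.970), and Cacnb4 had 76 against 87. Per length Cacnb1 stood above Cacnb2 in both libraries, by 10.4 against 2.43 TPM in the wild-type-labelled library and by 6.32 against 4.90 TPM in the cKO-labelled library, so the order was the same and the gap smaller in the cKO-labelled library. Of the alpha2delta subunits, which aid trafficking and bind gabapentin-type drugs, none was called. Cacna2d1 had 681 against 557 reads (ratio 1.22, 1.09 to 1.37) and Cacna2d2 had 62 against 100 (0.618, 0.442 to 0.856), which is 1.62-fold lower before and under 1.5-fold after 1 CPM is added, while Cacna2d3 had 31 against 29.

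The Cacng genes encode the calcium channel gamma subunits, most of which act as TARPs, the auxiliary subunits that bring AMPA-type glutamate receptors to synapses. Cacng7 was the most abundant channel subunit gene of all per length (68.5 and 75.5 TPM), with 1654 reads against 1825 (ratio 0.903, 0.844 to 0.965). Cacng4 had 1479 reads in the cKO-labelled library against 2264 in the wild-type-labelled library (78.2 against 120.2 CPM) and was 1.54-fold lower (1.44 to 1.64). Cacng5 had 1066 against 741 reads (56.4 against 39.3 CPM), a ratio of 1.43 (1.30 to 1.58), just short of the call. Cacng8 had 429 against 406 and Cacng6 25 against 28 reads, with intervals that included 1. Cacng3, a neuronal TARP gene, had 4 against 18 reads and lay just outside the filter.

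Cacng4 and Cacng5 are neighbours on chromosome 11 (107732357 to 107794706 and 107874604 to 107915055), 79897 bases apart, yet lay on opposite sides of 0 with intervals that did not meet. Cacng1, the muscle gene beside them, had 1 read in each library. In another cluster, on chromosome 7, Cacng7, Cacng8 and Cacng6 lay within 1.5-fold (differences of -0.15, 0.07 and -0.10). Signs of the point values thus differed between Cacng neighbours on both chromosomes, and also between Cacna2d3 (0.06) and Cacna1d (-1.54) on chromosome 14. Of these genes Cacng8, Cacng6 and Cacna2d3 had intervals that included 1, so only Cacng4 and Cacng5 had opposite signs beyond counting error. The kept sodium channel genes of chromosome 2 had like signs, but the intervals of Scn2a and Scn1a reached past 1.

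**Figure D3:**
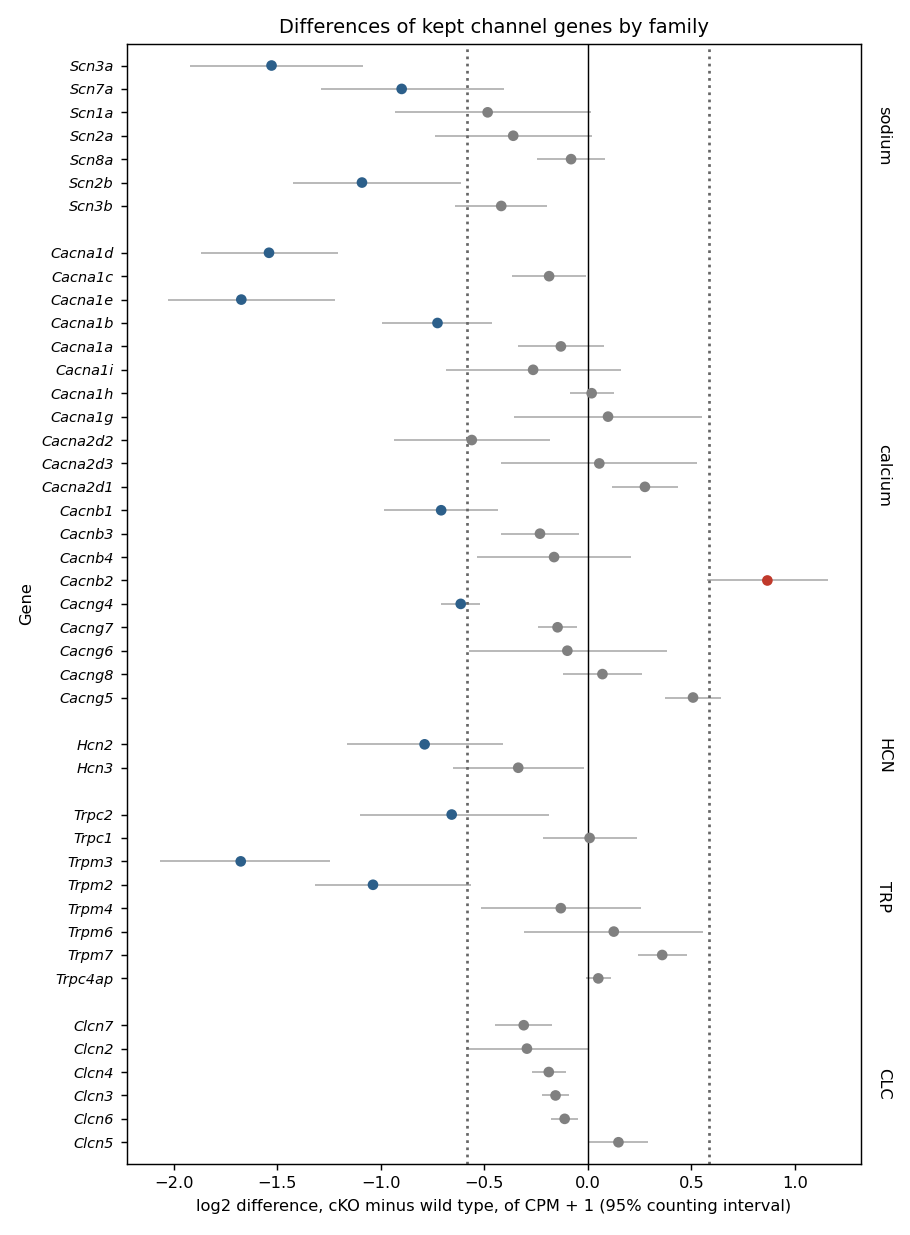
Difference of 43 of the 46 kept channel genes on the log2 scale of CPM + 1, cKO-labelled library minus wild-type-labelled library, with 95% counting intervals and grouped by family; dotted lines mark 1.5-fold. Blue points are the 12 lower genes, the red point is Cacnb2, and grey points are the 30 drawn genes within 1.5-fold, which include every kept CLC gene.

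Of the pacemaker-type HCN genes only Hcn2 and Hcn3 were kept. Hcn2, the form of thalamic and other central neurons, had 56 reads in the cKO-labelled library against 110 in the wild-type-labelled library and was 1.97-fold lower (1.42 to 2.77). Hcn3, the most abundant of the family per length (3.02 and 4.04 TPM), had 113 against 147 reads, a ratio of 0.766 (0.594 to 0.985). Hcn4, the sinus node form, had 2 against 18 reads, a ratio of 0.111 (0.0125 to 0.462), and lay just outside the filter. The 2 kept members were on the same side, but 1 of them was within 1.5-fold.

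Among the TRP genes 3 were lower and 0 higher of 9 kept, all 3 with a mean under 5 CPM, where 27.6% of all kept genes were lower. Trpm3, a heat- and steroid-activated calcium channel also made in glia, had 20 reads in the cKO-labelled library against 105 in the wild-type-labelled library (1.06 against 5.57 CPM) and was 5.27-fold lower (3.25 to 8.98). Trpm2, a channel opened by ADP-ribose under oxidative stress, had 4 against 28 reads and was 7.03-fold lower (2.46 to 27.6). Trpc2, the channel of the vomeronasal organ, had 23 against 47 reads and was 2.05-fold lower (1.22 to 3.54), but 97.5% of its exonic bases also belong to the read-through gene Xntrpc in the GENCODE annotation, so its reads are not certainly its own.

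The other kept TRP genes were within 1.5-fold. Trpm7, a magnesium-permeable channel fused to a kinase, was the most abundant TRP channel per length (16.3 and 12.6 TPM), with 1297 reads against 1003 and a ratio of 1.29 (1.19 to 1.40). Trpm6, its relative, had 51 against 45 reads, and Trpm4, a calcium-activated monovalent channel, 69 against 77. The receptor-operated channel gene Trpc1 (288 against 285 reads; ratio 1.01, 0.852 to 1.19) did not differ detectably at this depth. Trpc4ap, the non-channel member, was the most abundant of all (136.2 and 131.0 TPM) with 4576 against 4400 reads. Of the TRPV group, which holds the heat and capsaicin receptors, no gene was kept, with 8 reads against 24 summed over Trpv1, Trpv2, Trpv3 and Trpv4.

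None of the 6 kept CLC genes was called. Of these 5 had a mean of 20 CPM or more, where 5.29% of all kept genes were lower and 3.29% higher, so a count of 0 is near the background of that level. Their differences ran from -0.31 to 0.15 on the log2 scale. Clcn6, the most abundant per length (62.6 and 67.4 TPM) and an exchanger of late endosomes, had 3547 reads in the cKO-labelled library against 3819 in the wild-type-labelled library (ratio 0.925, 0.884 to 0.969). Clcn3 and Clcn4, endosomal exchangers, had 3390 against 3764 (0.897, 0.856 to 0.940) and 2202 against 2502 reads (0.877, 0.828 to 0.929). Clcn7, the exchanger of lysosomes, had 762 against 945 reads (0.803, 0.729 to 0.885). Each of these 4 ratios lay below 1 by more than counting error and by less than 1.5-fold. Intervals wholly on 1 side of 1 were common: 31.2% of all kept genes lay wholly below and 28.1% wholly above. Of the 8108 genes of 20 CPM or more, 2442 lay wholly below and 2817 wholly above. Clcn2, a cell-surface channel of glia, had 139 against 174 reads (0.796, 0.632 to 1.0003). Clcn5, the endosomal exchanger known from kidney tubules, was the 1 kept member above 1, with 813 against 729 reads (1.11, 1.004 to 1.23). Clcn1, the skeletal muscle channel, had 14 reads in each library.

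Members outside the filter were few in reads. The 20 genes had at most 18 reads in either library, and included Scn4a, Scn4b, Scn9a, Scn11a, Cacna1s, Cacna2d4, Cacng1, Cacng2, Cacng3, Hcn4, Trpc5, Trpc5os, Trpc7, Trpm1, Trpv1, Trpv2, Trpv3, Trpv4 and Clcn1. Just inside the filter stood Scn1a (1.43 CPM in its higher library), Trpm2 and Cacng6 (1.49 each), and just outside it Cacng3 and Hcn4 (0.956 each). The muscle pore genes Scn4a (0 against 1 read) and Cacna1s (2 against 1) were near 0 in both libraries.

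By role, 9 of 30 kept pore-forming genes and 3 of 15 kept auxiliary genes were lower, against 10.2% of all kept genes. Most of the lower pore-forming genes had a mean under 5 CPM, where 27.6% of all kept genes were lower. Role and level were not separated here. The medians were -0.23 and -0.15 on the log2 scale, both beside -0.02 for all kept genes. Reads of all 64 subunit genes summed to 23476 in the cKO-labelled library against 25663 in the wild-type-labelled library.

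A further readout came from the deposited FPKM values. Reads divided by FPKM give the length over which a gene was quantified, and that implied length can shift when a library draws on other transcripts of the gene. Among kept genes with at least 20 reads in both libraries, 258 of 12001 (2.15%) had implied lengths over 10% apart beyond the rounding of FPKM, and so did 2 of 40 members. The implied length of Trpm3 in the cKO-labelled library was 0.696 of that in the wild-type-labelled library (rounding limits 0.667 to 0.726), and that of Cacna1d was 0.895 (0.882 to 0.908). In TPM Trpm3 was therefore 3.71-fold lower (0.24 against 0.89 TPM) rather than 5.27-fold, and Cacna1d 3.07-fold (0.73 against 2.24 TPM) rather than 3.45-fold. The rounding limits leave out the error of few reads. Trpm3 had 20 reads in the cKO-labelled library, the minimum used, and Cacna1d had 66. The 2.15% is a share over genes of every level above that minimum. A change of transcript was not tested.

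Both genes have 2 start sites in the RefSeq promoter table (GRCm38.p6), and their upstream windows are shown so that the starts of each gene can be compared. Each line holds the 250 bases before a start, 5′ to 3′ on the gene's strand. Capitals mark 2 motifs searched on both strands: the heat shock element core GAANNTTC and the palindromic E-box CACGTG.
Trpm3 at chr19:22138796-22139045, plus strand: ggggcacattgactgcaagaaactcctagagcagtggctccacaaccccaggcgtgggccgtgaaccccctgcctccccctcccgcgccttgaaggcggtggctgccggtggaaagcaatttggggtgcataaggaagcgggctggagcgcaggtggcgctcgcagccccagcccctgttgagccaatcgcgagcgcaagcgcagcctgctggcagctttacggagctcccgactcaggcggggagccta
Trpm3 at chr19:22447958-22448207, plus strand: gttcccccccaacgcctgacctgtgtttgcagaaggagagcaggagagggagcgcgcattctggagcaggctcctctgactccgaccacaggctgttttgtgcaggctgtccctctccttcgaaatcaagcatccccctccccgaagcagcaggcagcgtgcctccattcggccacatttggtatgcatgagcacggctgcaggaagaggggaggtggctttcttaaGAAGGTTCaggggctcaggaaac
Cacna1d at chr14:30491157-30491406, minus strand: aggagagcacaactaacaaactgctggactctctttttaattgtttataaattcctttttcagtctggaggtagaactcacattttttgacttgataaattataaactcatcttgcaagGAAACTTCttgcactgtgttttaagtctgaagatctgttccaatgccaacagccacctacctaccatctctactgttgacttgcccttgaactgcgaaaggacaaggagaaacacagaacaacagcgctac
Cacna1d at chr14:30353487-30353736, minus strand: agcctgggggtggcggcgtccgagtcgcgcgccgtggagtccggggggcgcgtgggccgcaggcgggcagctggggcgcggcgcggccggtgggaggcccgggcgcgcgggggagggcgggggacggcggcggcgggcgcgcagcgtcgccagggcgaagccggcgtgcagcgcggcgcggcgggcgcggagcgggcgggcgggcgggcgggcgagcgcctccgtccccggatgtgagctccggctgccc
The starts of each gene differed in base composition. The Trpm3 windows had 66.4% and 59.2% G and C with 17 and 9 CG pairs. For Cacna1d the windows had 39.6% and 86.4% G and C with 2 and 50 CG pairs. The deposited values are per gene, so the start in use was not tested.

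The second Trpm3 window and the first Cacna1d window each held GAANNTTC, and so did a window of Cacnb1. These letters were in 3 of 13 windows of the 10 lower genes found in the table, in 0 of 36 windows of the 24 genes within 1.5-fold, and in 4.83% of the windows of all kept genes. Over all kept members they were in 3 of 51 windows (5.88%), near that background. The Cacnb1 window is shown as the GC-rich case (73.2% G and C).
Cacnb1 at chr11:98022628-98022877, minus strand: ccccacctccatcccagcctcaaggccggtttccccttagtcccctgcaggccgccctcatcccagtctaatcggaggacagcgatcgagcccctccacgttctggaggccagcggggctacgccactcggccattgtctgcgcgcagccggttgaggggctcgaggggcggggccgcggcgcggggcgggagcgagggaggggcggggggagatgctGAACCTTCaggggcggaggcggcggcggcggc
CACGTG was in 3 of 10 windows of the kept CLC genes (Clcn4, Clcn6 and Clcn7) and in 1 of 8 of the TRP genes (Trpm7), and in 0 of 25 calcium, 0 of 7 sodium and 0 of 1 HCN windows. Over all kept members it was in 4 of 51 (7.84%), near the 8.25% of the windows of all kept genes. The CLC family is represented by the windows of Clcn6, with 2 copies, and Clcn7, with 1.
Clcn6 at chr4:148038814-148039063, minus strand: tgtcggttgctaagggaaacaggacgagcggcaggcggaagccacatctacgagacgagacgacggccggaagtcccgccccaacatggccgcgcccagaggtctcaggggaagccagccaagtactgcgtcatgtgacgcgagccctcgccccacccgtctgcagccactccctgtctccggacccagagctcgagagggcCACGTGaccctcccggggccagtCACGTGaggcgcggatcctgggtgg
Clcn7 at chr17:25133141-25133390, plus strand: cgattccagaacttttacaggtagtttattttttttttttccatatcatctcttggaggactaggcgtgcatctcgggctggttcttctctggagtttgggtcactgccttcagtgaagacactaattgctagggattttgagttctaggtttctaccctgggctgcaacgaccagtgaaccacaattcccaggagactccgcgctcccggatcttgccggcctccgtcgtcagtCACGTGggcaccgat
Each of the 4 genes with CACGTG was within 1.5-fold, as were 24 of the 35 kept members with windows and every kept CLC gene. The core ACGTG of the hypoxia response element was in 9 of 51 windows of kept members (17.6%) and in 21.4% of the windows of all kept genes; it overlaps the E-box. The SOX motifs ACAAAG and ACAATG were in 10 and 5 of 51, or 19.6% and 9.80%, against 11.95% and 6.10%. A match of letters is a description and no site.

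Channel partners, channels outside the families, calcium handling genes and AMPA receptor genes were followed in 9 lists. These lists held 160 genes, of which 124 were kept, 32 were lower (25.8%, background 10.2%) and 8 higher (6.45%, background 4.22%), with a median of -0.13. Some of the lower genes, Fgf13, Rims1 and Ryr3 among them, had a mean under 5 CPM, where 27.6% of all kept genes were lower. The lists were not split by level. Of the partners of sodium channels 5 of 13 were lower and 0 higher, with a median of -0.41. Fgf13, a cytoplasmic FGF-like protein that binds the pore, had 10 reads against 60 and was 6.02-fold lower (3.06 to 13.2). Its relative Fgf11 had 276 against 959 reads (3.49-fold lower, 3.05 to 4.003). Nfasc, which anchors channels at nodes and initial segments and is also an oligodendrocyte adhesion gene, had 573 against 1815. The intervals of 2 partners lay wholly above 1 and those of 10 wholly below, beside 28.1% and 31.2% of all kept genes. Ank3, the anchor of sodium channels at initial segments, had 2043 against 1537 reads (ratio 1.32, 1.24 to 1.42). The ubiquitin ligase gene Nedd4, the most abundant per length (268.8 and 231.9 TPM), had a ratio of 1.12 (1.09 to 1.15).

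Regulators of calcium channels went both ways, with 3 of 13 lower, 2 higher and a median of 0.03. The higher ones were 2 of the 4 genes of the RGK proteins, small GTPases known to reduce calcium channel current. Gem had 265 reads in the cKO-labelled library against 67 in the wild-type-labelled library (ratio 3.94, 3.003 to 5.23), and Rrad 125 against 38 (3.28, 2.26 to 4.84). Rem2 was within 1.5-fold (77 against 62 reads; 1.24, 0.874 to 1.76) and Rem1 had 1 read in each library. Lower ones included Rims1 and Rimbp2, which tether calcium channels at release sites, with 21 against 103 and 15 against 78 reads (4.92-fold, 3.06 to 8.29, and 5.22-fold, 2.98 to 9.77). The calmodulin gene Calm2, the most abundant, had 12478 against 9028 reads (ratio 1.38, 1.34 to 1.42).

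Genes of calcium stores were mostly even, with 2 of 12 lower and 0 higher (median -0.12). The release channel genes Itpr2 (617 against 1414 reads; 2.30-fold lower, 2.09 to 2.53) and Ryr3 (22 against 74; 3.38-fold, 2.07 to 5.71) were the lower ones. The store sensor genes Stim1 and Stim2 had 294 against 373 and 1611 against 1282 reads, and the entry channel gene Orai1 251 against 275. The store pump gene Atp2a2 was the most abundant, at 222.9 and 212.0 TPM. Calcium extrusion genes had 5 of 13 lower and 1 higher (median -0.26). The plasma membrane pump gene Atp2b4 was 2.26-fold lower (1.99 to 2.56; 364 against 819 reads), and all 3 sodium-calcium exchanger genes were lower, with Slc8a2 at 626 against 1166 reads, Slc8a1 at 282 against 514 and Slc8a3 at 250 against 387. The mitochondrial exchanger gene Slc8b1 had 75 against 37 (ratio 2.02, 1.35 to 3.08), and Smdt1, part of the mitochondrial uniporter, was the most abundant of the list (555.9 and 620.7 TPM). Kinases and transcription factors downstream of calcium had 2 of 16 lower and 0 higher, with a median of 0.19. Camk2a and Camk2g were 2.11-fold (1.43 to 3.15) and 1.54-fold (1.39 to 1.70) lower, whereas Camk2b, the most abundant, had 14444 against 11711 reads (ratio 1.23, 1.199 to 1.26).

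**Figure D4:**
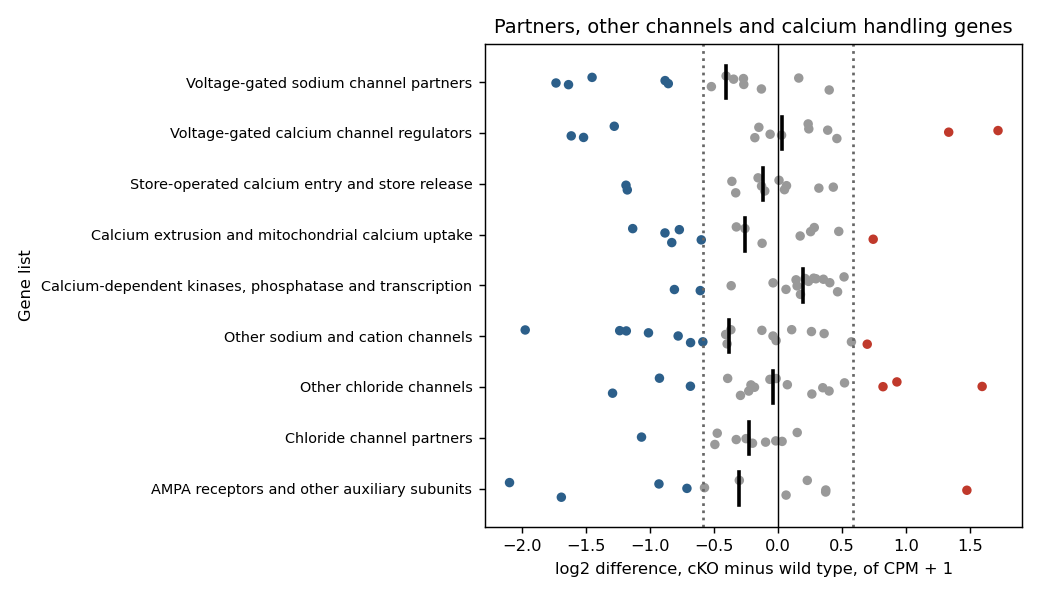
Difference of each kept gene of the 9 lists of partners, other channels, calcium handling and AMPA receptor genes (points, spread vertically for legibility). The scale is log2 of CPM + 1, cKO-labelled library minus wild-type-labelled library. Black bars are list medians and dotted lines mark 1.5-fold. Blue genes are lower and red genes higher: the sodium channel partners have 5 blue and 0 red points, and the calcium channel regulators 3 blue and 2 red.

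Cation channels outside the families had 7 of 18 lower and 1 higher (median -0.38). The acid-sensing channel gene Asic4 had 3 reads in the cKO-labelled library against 67 in the wild-type-labelled library and was 22.4-fold lower (7.35 to 111.5). Nalcn, the sodium leak channel, and its partner genes Unc80 and Unc79 were all lower, with 209 against 439, 30 against 96 and 672 against 1015 reads. The polycystin gene Pkd1 had 4633 against 2838 reads (ratio 1.63, 1.55 to 1.71). The mechanosensitive Tmem63b was the most abundant (90.4 and 115.6 TPM). Chloride channels outside the CLC family were split, 3 of 18 being higher and 3 lower (median -0.04). Clic5 and Lrrc8c, a volume-regulated channel gene, had 797 against 250 (3.18, 2.75 to 3.67) and 1023 against 526 reads (1.94, 1.74 to 2.16). Ttyh1 and Ttyh3, membrane proteins of the tweety family, had 2068 against 5074 and 11965 against 19162, and Clic1 5905 against 3321. Per length Clic1 stood above Ttyh3 in the cKO-labelled library (595.9 against 236.2 TPM) and below it in the wild-type-labelled library (337.7 against 378.2 TPM). Partners of CLC and chloride carriers had 1 of 10 lower and 0 higher (median -0.22). That gene, Hepacam, which binds the Clcn2 channel in glia, was 2.10-fold lower (1.996 to 2.22), while Mlc1, the most abundant, had 6207 against 8598 reads and Ostm1, the subunit of the Clcn7 exchanger, 1142 against 1356. Of the AMPA receptor genes that TARPs serve and their other auxiliary subunits 4 of 11 were lower and 1 higher (median -0.30). Shisa9 was 5.63-fold lower (4.10 to 7.88; 46 against 258 reads), Shisa7 was 3.50-fold lower (2.93 to 4.21; 158 against 551 reads), and Shisa6 had 2104 against 741 (ratio 2.83, 2.60 to 3.08). The scaffold gene Dlg4, the most abundant, had 2716 against 2588.

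Marker lists are read against the same background of 10.2% lower and 4.22% higher. Of the 14 neural stem and radial glia markers 5 were lower (Hes5, Prom1, Sox9, Slc1a3 and Fabp7) and 2 higher (Tnc and Vim) in the cKO-labelled library. Of 17 kept oligodendrocyte lineage markers 12 were lower and 0 higher, with a summed level of 2724 against 4260 CPM. Mobp was not kept, with 0 reads in the cKO-labelled library against 6 in the wild-type-labelled library. Of 13 astrocyte markers 10 were lower and 0 higher (2732 against 4913 CPM). Neuronal markers had 4 of 14 lower (Dcx, Ncam1, Snap25 and Syp) and 3 higher (Reln, Nefm and Nefl), with a median of -0.10 (951.2 against 1246 CPM). The largest in each direction were Dcx, at 80 against 824 reads, and Reln, at 594 against 234. Rbfox3, a marker of mature neurons, had 20 against 19. Their part in the channel differences was not tested. In bulk RNA, fewer cells of a type and less RNA per cell cannot be told apart.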

How the data were processed

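Total RNA from 1 library per genotype was analysed, with groups taken from the genotype labels and columns matched by the genotype in their names. Reads were placed on GRCm38.p6, the build named in the submitters' processing notes. Aligner, counter, annotation and strand setting: not given in the sources used here. Per gene, the authors deposited an estimated count of reads per gene (89.8% and 90.0% of the values whole), an FPKM, a TPM and a normalized read count, used here as a signal, all named per the file headers. In the deposited table the last equalled the read count, rounded up, times 1.00261 (cKO) or 0.997397 (wild type).

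Counts were rounded to whole reads and divided by column totals (Python 3.11.15, scipy 1.17.1). The added value of 1 CPM understates the differences of low genes. PCR copies cannot be told from separate molecules without molecular identifiers, so intervals cover counting error at most. Coordinates came from RefSeq genes of GRCm38.p6, matched by Entrez number for all 66 members. Exonic overlaps came from GENCODE. Promoter windows were found for 52 members.

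The members, the gene lists and the motifs were chosen with earlier results of these data known, and CACGTG was added after the ACGTG matches were seen. Named genes were every kept member at least 1.5-fold apart and the most abundant member per length of each family, with the remaining members given by reads or by name, except a few members that are not reported here, though the counts include them; of each list, up to 2 genes per direction with at least 50 reads in the higher library and the most abundant per length. Other list genes were named after their values were seen. Alternatives were other scalings (TMM from edgeR 4.0.16, median of ratios), units, filters and added values.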

Additional observations from a re-analysis of the deposited data

How the results depend on the processing

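With TMM scaling, median-of-ratios scaling, the deposited normalized read count and without Trpc4ap and Trpc5os, the same 14 members were called, 12 lower and 2 higher. The median difference of the members ran from -0.19 to -0.10 over all alternatives, and no called member changed sign under an alternative whose filter it passed. In deposited TPM, where 1 TPM was added, 5 of 35 kept members were lower, beside 1097 of all 12269 genes kept. Of the lower members 0 were sodium and 0 TRP genes. The calls of 8 members were lost (Cacna1b, Cacna1e, Scn2b, Scn3a, Scn7a, Trpc2, Trpm2 and Trpm3) and Cacng3 was gained. Of these 8, 6 were under 1 TPM in both libraries and so were not kept (35 members were), though their TPM was 3.64-fold to 6.82-fold lower. Cacna1b and Trpc2 were kept and fell short of the call after 1 TPM was added (1.71-fold and 2.05-fold lower without it). A filter of 5 CPM in at least 1 library leaves fewer genes and removed 6 of the called members. With it 6 of 30 kept members were lower, beside 879 of all 10995 genes kept. Of these lower members 0 were sodium and 1 was a TRP gene. The 9 other lists had 21 lower genes in place of 32. With no filter 2 HCN genes were lower in place of 1, Hcn4 being the addition, and Cacng3 was gained as well. With 0.25 CPM added, 14 calls stood and Cacna2d2 and Scn1a were gained, while the lower genes among all 12618 kept rose from 1290 to 1493. No paired analysis was possible because each group has 1 library. Depth limits the calls of Trpm2, Scn2b, Scn7a and Cacna1e, which had 4 to 10 reads in the cKO-labelled library.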
